A study of Mus musculus with 6 samples.

Results

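Spata (spermatogenesis associated) and Tex (testis expressed) are names given to genes because their mRNAs were found in the testis, so the names mark where a gene is expressed and not what its protein does. The members are the contigs whose gene symbol is Spata or Tex followed by a digit, leaving out Spata22, Tex11, Tex12, Tex14, Tex15 and Tex101. These are 121 contigs, each an annotated transcript, of 61 genes (32 Spata and 29 Tex) among the 12114 contigs measured. They carried 26723 of 1968636 reads. Native mRNA was sequenced on nanopores, where each read is 1 molecule with its own poly(A) tail, in 3 samples of P/D spermatocytes (pachytene and diplotene, late in meiotic prophase) and 3 samples of round spermatids (RS, the haploid cells that follow meiosis), sorted by Hoechst fluorescence and light scatter from adult C57BL/6J wild-type mice. Each sample combined mRNA of 3 mice. One sequencing library held all barcoded P/D samples and a second held all barcoded RS samples, so cell type and library cannot be told apart, and the sorting gates enrich for a cell type without holding it alone. The study describes the P/D gate as much less pure than the RS gate, so a large part of each P/D sample can be other cells, and P/D counts and tails are those of the sorted mixture. Its reporting summary states that the cell types were taken from the same mice, without saying whether pools of the same number hold the same mice. The labels give no treatment or mutant allele for any of the 6 samples.

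The poly(A) tail is added to the 3′ end of an mRNA in the nucleus and is shortened or extended in the cytoplasm, and it affects how stable an mRNA is and how readily it is translated. Spermatids depend on this control more than most cells, because transcription stops when protamines compact the nucleus, and many mRNAs for the tail, the acrosome and the mitochondrial sheath are made early, stored and used later. The members include parts of those structures. SPATA6 builds the connecting piece that joins head and tail, SPATA16 is needed to form the acrosome, SPATA19 and SPATA33 sit on the mitochondria of the midpiece, and the SPATA31 family is a group of large, duplicated testis genes. Others, such as Tex2, Tex10 and Tex261, are housekeeping genes whose names record only where they were first cloned.

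A tail starts downstream of the poly(A) signal, the hexamer AATAAA or its variant ATTAAA. The stretches around that signal are given for 6 members with contrasting tail changes, with the hexamer in capitals. Each lies at the annotated end of the transcript, and where the reads themselves end was not tested. They were read from GENCODE vM21 transcripts on GRCm38, and each is 30 bases long.
Spata4 (chr8:54610056-54610085, plus strand): atgtatttaaatAATAAAtaacttaaattg
Spata33 (chr8:123222013-123222042, plus strand): tacacaacacagAATAAAtgagagctctcg
Spata6 (chr4:111829105-111829134, plus strand): taaataattgaaAATAAAagaattatattg
Spata19 (chr9:27401672-27401701, plus strand): tactgaagtgctAATAAAgagacatcttat
Spata46 (chr1:170312096-170312125, plus strand): tagaggggtaacAATAAAttgaaattagtc
Tex10 (chr4:48430863-48430892, minus strand): cagatgtttgccATTAAAcctcaactttta

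Of the 6, Spata4, Spata33 and Spata6 carried longer tails in RS, and no tail change was called for Spata19, Spata46 and Tex10. All but Tex10 have AATAAA. Among the contigs with the most reads of each gene (called lead contigs from here on), 34 of 61 had AATAAA in the last 50 bases and 45 of 61 had either hexamer. Over all member contigs, 80 of 121 (66.1%) had either hexamer, against 75.7% of all 11344 annotated contigs with a sequence. AATAAA alone occurred in 47.1% and 61.1%. Among protein-coding contigs, 70.5% of 105 members and 77.5% of 9701 in all had either hexamer.

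The labels and the markers matched. The samples held between 244004 and 474688 reads, and replicates of 1 cell type differed less from each other than the cell types did. Markers of round spermatids (Acrv1, Spaca1, Acr and 5 others) took 0.252 to 0.266% of reads in RS and 0.035 to 0.0454% in P/D samples, and none of these 8 genes was at 0 in P/D samples. Markers of elongating spermatids (Prm1, Tnp1, Odf1 and 5 others) took 2.33 to 2.81% in RS and 0.184 to 0.248% in P/D samples. Markers of P/D spermatocytes fell from 0.476 to 0.541% in P/D samples to 0.266 to 0.302% in RS, with 9 of 12 tested contigs lower and 2 higher, and Mlh3 was not listed. Spermatogonial, Sertoli and Leydig markers reached at most 7 reads in a sample for each list, where 1 of 7, 2 of 6 and 1 of 6 genes were listed, and none of 5 macrophage and peritubular markers was listed. Neither test used these markers to correct for other cells.

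In RS, Spata and Tex mRNAs together took a larger part of the transcriptome. In P/D spermatocytes their share of reads was 0.921, 0.926 and 0.851%, and in RS it was 1.64, 1.68 and 1.72%. The groups did not overlap, and the mean share rose 1.87-fold, from 0.899% ± 0.0418 to 1.68% ± 0.0402 (SD, n = 3 each; exact two-sided permutation test, p = 0.1, the smallest 3 against 3 samples can give). The rise was uneven across roles. The SPATA31 family went from 0.016% ± 0.00536 to 0.093% ± 0.00375 of reads (SD, n = 3), a ratio of 5.80. The connecting piece, manchette and flagellum list went from 0.324% ± 0.0113 to 0.344% ± 0.00408, a ratio of 1.06. Spata4 held most of its reads in P/D samples, with 657, 875 and 766 of 760, 1020 and 888. With reads summed to the gene, the log2 fold change was -0.25 for Spata4, 1.73 for Spata6 and 1.17 for Spata17. In samples such as these, a change in the number of cells of a type and a change in RNA per cell cannot be told apart.

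**Figure D1:**
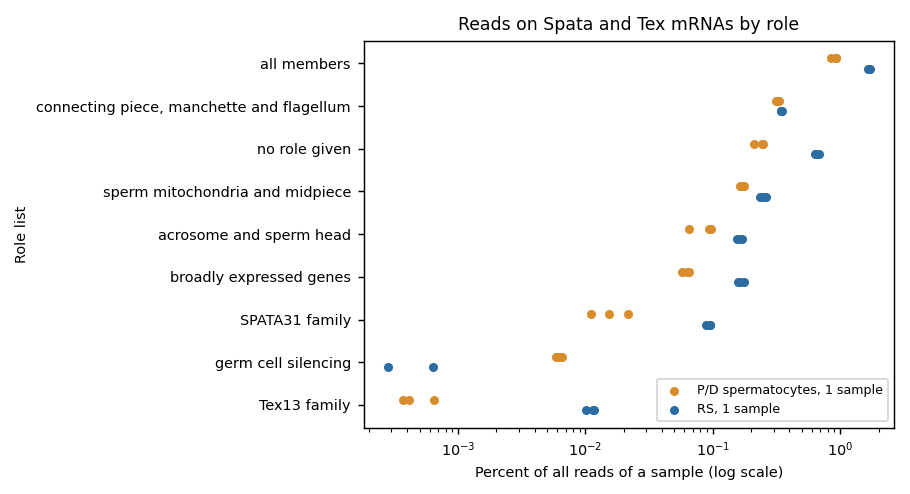
Percent of all reads of a sample (x axis, log scale) that fell on all members or on each role list (y axis), with 1 point for each of 3 P/D samples (orange) and 3 RS samples (blue). The Tex13 list and Tex19.2, the one higher and the other lower in RS, sit furthest apart between cell types. The flagellum list, where Spata4 held most P/D reads, sits closest. Left off the log axis is 1 RS sample with no read on Tex19.2, the germ cell silencing list.

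By contig, 54 of 69 tested members accumulated to higher levels in RS and 4 to lower levels (edgeR quasi-likelihood test on the counts, Benjamini-Hochberg adjusted p below 0.05 over all 6005 tested contigs). Over all tested contigs, 32.6% were higher and 30.8% lower in RS. The median log2 fold change was 2.78 over the tested members and -0.03 over all contigs. The filter on low counts keeps a contig that is abundant in either cell type alone, so many of these members passed because they were high in RS. In a separate fit to the contigs that reached 10 reads in all 6 samples, 11 of 21 members were higher and 0 lower (also 0 at an unadjusted p below 0.05), against 25.0% higher and 23.6% lower of all 3077 such contigs, and the members' median log2 fold change was 0.45. That fit moved log2 fold changes up by a median of 0.20. In the fit to all tested contigs, 10 of the same 21 were higher and 2, Spata4 and Tex261, were lower, and DESeq2 called 9 higher and 1 lower. The remaining 52 contigs did not pass the filter, and 15 contigs, of 11 genes, had no read in any P/D sample.

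The most abundant member was Spata4, a testis protein with a calponin-homology domain. It had 657, 875 and 766 reads in P/D samples and 674, 1062 and 781 in RS. After normalization to library size these were 3017 ± 117 and 2434 ± 97.7 CPM (counts scaled to a fixed library size; SD, n = 3), a log2 fold change of -0.31 (SE 0.09, adjusted p = 0.00239). In a fit restricted to contigs that reached 10 reads in all 6 samples, the value was -0.11 and no longer passed (adjusted p = 0.277). Spata33, whose protein anchors calcineurin to sperm mitochondria, had 1515 ± 53.9 CPM in P/D samples and 1450 ± 144 in RS on its lead contig, with a log2 fold change of -0.06 (SE 0.10, adjusted p = 0.612). Spata16 was also near level, at 472 ± 77.4 and 390 ± 23 CPM (log2 fold change -0.27, SE 0.14, adjusted p = 0.0936). These mRNAs were already abundant in P/D spermatocytes.

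A second set rose 9.33- to 12.9-fold from a low level in P/D samples. Spata19 had 8, 16 and 12 reads in P/D samples and 176, 246 and 206 in RS on its lead contig, a log2 fold change of 3.68 (SE 0.20, adjusted p = 2.29e-19). Spata46, which shapes the sperm head beneath the acrosome, had 19, 21 and 11 reads and then 196, 288 and 229 (log2 fold change 3.36, SE 0.19, adjusted p = 3.41e-19). Spata21 had 21, 24 and 10 reads and then 203, 300 and 197 (log2 fold change 3.22, SE 0.19, adjusted p = 2.76e-18). For these genes every RS count lay several-fold above every P/D count.

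The highest fold changes among lead contigs belonged to Tex13c1, Tex35, Tex13a, Spata25, Tex29 and Spata19, with log2 values of 4.64, 4.18, 4.14, 3.73, 3.69 and 3.68. Tex13a and Tex13c1 are X-linked, on a chromosome that is silenced in pachytene spermatocytes. Tex13a had 1, 1 and 1 reads in P/D samples and 18, 34 and 27 in RS, and Tex13c1 had 0, 1 and 0 and then 12, 19 and 13. Each of these rests on few P/D reads. With 3 P/D reads in all, the ratio of reads per library total was 18.8 for Tex13a, with an exact 95% counting interval of 6.22 to 93.4. With 1, it was 31.5 for Tex13c1, with an interval of 5.37 to 1272. For the Tex35 lead contig, with 3, it was 19.3 with an interval of 6.38 to 95.7. The X-linked family member Tex13c3 had no P/D read and 2, 3 and 1 reads in RS, too few for either test.

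The 4 contigs that fell were those of Spata4, Tex261, Tex30 and Tex19.2. Tex19.2, a paralogue of the retrotransposon silencing gene Tex19.1, had 16, 18 and 17 reads in P/D samples and 0, 3 and 1 in RS, a log2 fold change of -3.97 (SE 0.49, adjusted p = 3.69e-09). The lead contig of Tex30 had 48, 59 and 57 reads and then 6, 5 and 5 (log2 fold change -3.76, SE 0.30, adjusted p = 1.79e-14). Tex261, which encodes a membrane protein of the early secretory pathway, fell by 0.56 on the log2 scale (SE 0.21, adjusted p = 0.0207), and this call was lost without RS replicate 2 (adjusted p = 0.177) and under 6 other alternatives. Tex19.2 and the Tex30 contig were far below the range of the P/D samples in all 3 RS samples.

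By role, the SPATA31 family rose in 7 of 7 tested contigs, against 32.6% of all tested contigs, with a median log2 fold change of 3.23. These 7 had few P/D reads and passed the filter on low counts through their RS reads, so the count favours rising contigs. Of family genes that did not pass it, Spata31e5 had 3, 5 and 3 reads in P/D samples and 4, 6 and 5 in RS. Spata31d1b had 2, 0 and 0 and then 20, 14 and 14. Spata31 itself rose 10.7-fold and Spata31f3 rose 10.4-fold on the lead contig, while Spata31g1, also called 1700022I11Rik, rose 2.58-fold. Of the mitochondria and midpiece list, 5 of 8 tested contigs rose and 0 fell. Of these, Spata18, a regulator of mitochondrial quality control, rose 5.40-fold, and the 3 Spata33 contigs did not pass the test in either direction. The acrosome and head list rose in 4 of 6, with the Spata16 contigs not passing. The connecting piece, manchette and flagellum list rose in 3 of 5 and fell in 1, which was Spata4.

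Of the 7 tested contigs of broadly expressed genes, 5 rose and 1 fell, with Tex10 at a log2 fold change of -0.12 (SE 0.23, adjusted p = 0.687). Those that rose were 2 contigs of Spata20, 2 of the ciliary gene Spata7, and Tex2, a lipid transfer protein of the endoplasmic reticulum. Of the 33 tested contigs with no role assigned, 28 rose and 1 fell. Over all tested contigs, 32.6% were higher in RS and 30.8% lower. The spermatid markers rose as well. The tested contigs of the round spermatid list had a median log2 fold change of 3.38, those of the elongating spermatid list 3.63, and 27 member contigs of 20 genes had a value of 3 or more with tails tested. Whether spermatid RNA in the P/D samples contributes to the low P/D counts of these members was not tested.

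Tails of Spata and Tex mRNAs were longer in RS on the whole. The median tail of the pooled member reads was 98.8 to 103 nt in the P/D samples and 164 to 166 nt in the RS samples. Tails of 120 to 210 nt made up 34.2% ± 2.10 of member reads in P/D samples and 75.5% ± 0.975 in RS, and tails of 30 to 120 nt made up 58.5% ± 2.44 and 13.7% ± 1.34 (SD, n = 3; exact two-sided permutation test, p = 0.1 for each, the smallest possible). Over all reads of the libraries the long class went from 29.6% ± 0.938 to 67.5% ± 0.993. The pooled member reads are weighted toward Spata4, Spata33 and Spata24, the genes with the most reads. With each tested member weighted equally, the long class rose by 21.3 percentage points, against 41.3 points over pooled reads.

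At the level of contigs, 32 of 74 tested members had longer tails in RS, 2 had shorter tails and 40 were not called (limma on the mean tail per sample, Benjamini-Hochberg adjusted p below 0.05 over all 6990 tested contigs). Of all tested contigs, 54.2% were longer and 1.69% shorter, against 43.2% of the tested members. Whether that gap exceeds chance was not tested. With the replicate number as a block, 26 members were longer and 1 shorter, and the 7 calls lost were the lead contigs of Tex21, Tex36, Tex51 and Tex261 and minor contigs of Spata19, Spata24 and Tex47. Of the 74 members, 26 had at least 10 reads in 2 or more P/D samples and 18 of these were longer. The other 48 passed the filter through their RS reads alone, so their P/D means rest on few molecules, and 14 of them were longer. In a separate fit requiring 10 reads in 2 replicates of both cell types, 19 of 24 members and 2956 of 3889 contigs were longer. In a separate fit to contigs that reached 20 reads in all 6 samples, 14 of 15 members were longer and 0 shorter (limma, also 0 at an unadjusted p below 0.05), with a median difference of 51.6 nt. Of all contigs in that fit, 87.1% were longer and 2.46% shorter, with a median of 49.9 nt. Where a mean existed in all 6 samples, every RS mean exceeded every P/D mean in 35 of 64 tested members, against 63.6% of 6464 contigs.

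**Figure D2:**
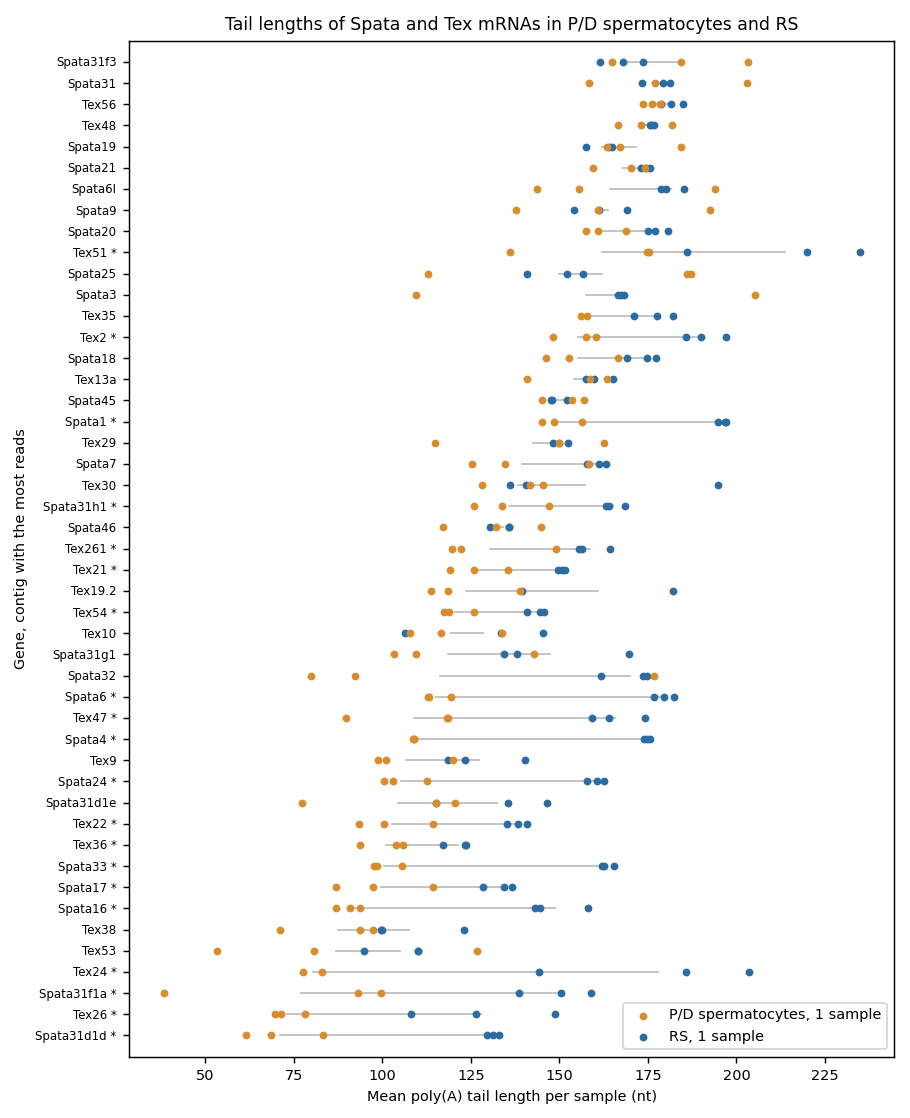
Mean poly(A) tail length in nt (x axis) of the lead contig of each member gene in the tail test (y axis, ordered by the P/D mean), with 1 point per sample for P/D spermatocytes (orange) and RS (blue), a grey line between the group means and an asterisk where the adjusted p passed 0.05. RS points run from 94.8 to 235 nt and P/D points from 38.4 to 205 nt.

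RS tails of the members lay closer together than P/D tails. Over the 74 tested contigs, P/D means ran from 71.0 to 202 nt with an SD over contigs of 33.2 nt, and RS means ran from 105 to 214 nt with an SD of 20.6 nt. The medians were 135 and 165 nt. Many P/D means rest on few reads. For Tex53, with 9 P/D reads and 86 RS reads, the SD between replicates was 37.2 nt in P/D samples and 8.78 nt in RS.

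Among the 11 lead contigs that reached 20 reads in all 6 samples, and so in every P/D sample, the 3 largest gains were in Spata4, Spata6 and Spata33. Spata4 tails averaged 109, 109 and 109 nt in the P/D samples and 174, 175 and 175 nt in RS, a difference of 65.9 nt (SE 5.07, adjusted p = 0.00049). In P/D samples 62.3% of its tails were of 30 to 120 nt, and in RS 3.4% were. Spata33 averaged 97.6, 105 and 98.4 nt and then 165, 162 and 163 nt, a difference of 62.8 nt (SE 5.51, adjusted p = 0.00049). Spata6 averaged 113, 119 and 113 nt and then 180, 177 and 182 nt, a difference of 64.3 nt (SE 5.49, adjusted p = 0.00049). In all 3 genes the spread between replicates was a few nt and the groups were far apart.

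The acrosome genes Spata16 and Spata1 both gained tail length, from different P/D means. The Spata16 lead contig averaged 93.6, 86.8 and 91.0 nt in P/D samples and 145, 143 and 158 nt in RS, a difference of 58.1 nt (SE 6.53, adjusted p = 0.00074). Spata1, which is associated with the acrosome, averaged 156, 145 and 148 nt and then 197, 195 and 197 nt, a difference of 46.3 nt (SE 5.77, adjusted p = 0.00103). Its RS tails were the longest among the 11 lead contigs that reached 20 reads in all 6 samples. Spata24 and Tex22, both abundant in P/D samples, gained 55.0 nt (SE 6.00, adjusted p = 0.000678) and 35.4 nt (SE 7.24, adjusted p = 0.007). Tex2 gained 35.6 nt (SE 6.43, adjusted p = 0.00426) and Spata17, an IQ-motif protein, gained 33.6 nt on its lead contig (SE 8.46, adjusted p = 0.0157), a call that was lost without RS replicate 1 (adjusted p = 0.0534).

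The smallest change at that depth was in Tex10, whose protein works in ribosome biogenesis with PELP1 and SENP3. It averaged 134, 108 and 117 nt in P/D samples and 145, 106 and 133 nt in RS, a difference of 8.95 nt (SE 12.3, adjusted p = 0.569). Its samples overlapped, and 52.0% of its RS tails remained in the class of 30 to 120 nt. Tex261 gained 28.5 nt (SE 9.41, adjusted p = 0.0421), a call that was lost under 8 alternatives, leaving out either P/D replicate 1 (adjusted p = 0.0968) or P/D replicate 2 (adjusted p = 0.0979) among them.

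For many members that rose most in RS, no tail change was called. Spata19 averaged 167, 184 and 163 nt in P/D samples and 164, 158 and 165 nt in RS (difference -9.44 nt, SE 7.51, adjusted p = 0.331). Spata21 averaged 160, 174 and 170 nt and then 176, 173 and 174 nt (6.26 nt, SE 6.21, adjusted p = 0.431). Spata45 averaged 157, 153 and 145 nt and then 148, 148 and 152 nt (-2.62 nt, SE 5.94, adjusted p = 0.732). For these genes the P/D means from 36 to 55 reads lay within 10 nt of the RS means. The 2 contigs called shorter in RS were minor contigs of Spata19, with differences of -35.0 nt (SE 7.92, adjusted p = 0.0104) and -45.2 nt (SE 12.2, adjusted p = 0.0268). They rest on 10 and 2 P/D reads, and with all Spata19 reads pooled to the gene the difference was -17.0 nt (SE 6.13, adjusted p = 0.0551).

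Among the 66 member contigs in both tests, 20 had a log2 fold change under 1, and 16 of these were longer in RS. Of the 27 with a value of 3 or more, 4 were longer and 2 shorter. Median P/D tails were 106 nt in the former and 164 nt in the latter, and median RS tails were 161 and 165 nt. Over all contigs in both tests the same split gave 3020 longer of 4431 and 51 longer of 648, with median P/D tails of 108 and 159 nt, so the same order was seen over all contigs. Across the 43 lead contigs in both tests, the tail difference and the log2 fold change had Pearson's r = -0.482. Over all 5916 contigs in both tests, r was -0.287. Each r is a description over genes or contigs that share the same 6 samples, and both measures become uncertain where P/D reads are few. The rising contigs had a median of 11 reads over the 3 P/D samples, against 125 for those under 1. The tested round spermatid markers had a median P/D tail of 161 nt and a median difference of 4.57 nt. The part of spermatid RNA in these P/D tails was not tested.

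**Figure D3:**
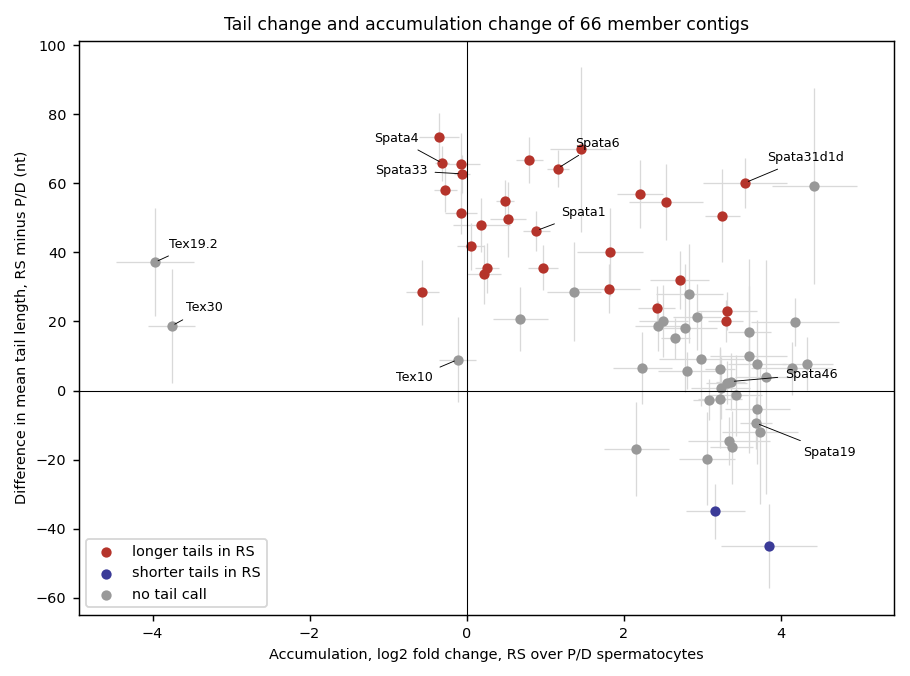
Difference in mean tail length in nt, RS minus P/D (y axis), against the log2 fold change in accumulation, RS over P/D (x axis), for the 66 member contigs in both tests, with standard errors as grey bars and red or blue points for contigs called longer or shorter. Points near a fold change of 0 lie mostly between 30 and 75 nt, and points above 3 lie mostly near 0 nt.

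In members tested and not higher in RS, 64.4% ± 2.06 of P/D reads had tails of 30 to 120 nt and 30.2% ± 2.11 had tails of 120 to 210 nt (SD, n = 3). In members higher in RS, the P/D reads were split between the classes, with 44.3% ± 2.51 and 44.0% ± 1.35. In RS the long class held 79.5% ± 0.477 and 74.6% ± 1.13 of reads. The median P/D tail was 91.7 to 94.9 nt in the first set and 129 to 134 nt in the second, and the RS medians were 164 and 164 to 167 nt. These are pooled reads, and in the first set they are weighted toward Spata4 and Spata33. Spata4 held 657, 875 and 766 of its 1526, 1912 and 1668 reads in the P/D samples. The Spata33 lead contig held 1149 over the 3 P/D samples.

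**Figure D4:**
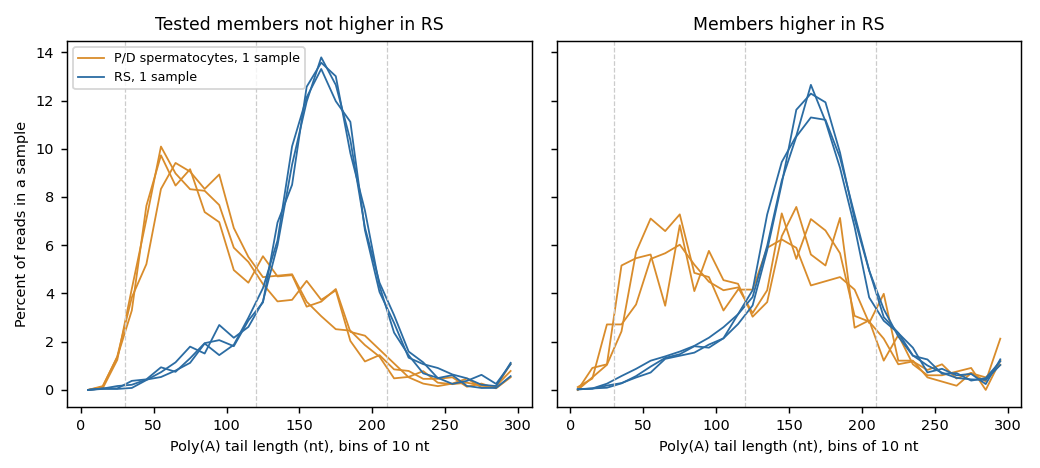
Percent of member reads of a sample (y axis) by tail length in nt in bins of 10 nt (x axis; the last bin holds all longer tails), for tested members not higher in RS (left) and higher in RS (right), with 1 line per P/D sample (orange) and RS sample (blue) and dashed lines at 30, 120 and 210 nt. P/D reads peak below 100 nt on the left and show a low broad peak on each side of 120 nt on the right. RS reads peak near 165 nt in both. Reads are pooled in each set, so genes with many reads, Spata4 and Spata33 on the left, weigh most.

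Some rising members were called longer in RS, most of them on few P/D reads. Spata31d1d had 1, 1 and 1 reads in P/D samples, of 83.2, 61.4 and 68.5 nt, and averaged 133, 131 and 129 nt in RS (60.2 nt, SE 7.30, adjusted p = 0.000946). Within the SPATA31 family 3 of 8 tested contigs were longer, those of Spata31d1d, Spata31f1a and Spata31h1, against 54.2% of all tested contigs. With weights by reads, the calls of Spata31d1d (adjusted p = 0.0611) and Spata31h1 (adjusted p = 0.104) were lost, and Spata31f1a rests on 2, 1 and 1 P/D reads. Spata31 and Spata31f3 had P/D and RS means between 164 and 184 nt, with no call. The family arose by duplication, and reads of close copies such as Spata31d1d and Spata31d1e can be assigned to either.

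Tex47 rose 4.61-fold and gained 56.9 nt on its lead contig (SE 9.91, adjusted p = 0.00372), from 23 P/D reads, and no alternative lost this call. The calls of Tex21, Tex36, Tex54 and Tex26 did not hold under every alternative. Tex21 gained 23.8 nt (adjusted p = 0.0198), a call lost with the replicate block (adjusted p = 0.0527) and without RS replicate 1, 2 or 3 (adjusted p = 0.0549, 0.0537 and 0.0521). Tex36 gained 20.1 nt (adjusted p = 0.0318), a call lost under 5 alternatives, among them the replicate block (adjusted p = 0.0868), P/D replicate 1 left out (adjusted p = 0.0601) and RS replicate 1 or 3 left out (adjusted p = 0.0935 and 0.0841). Tex54 gained 23.0 nt from 9 P/D reads (adjusted p = 0.0139), but 12.6 nt with median tails (adjusted p = 0.274). Tex26 gained 54.6 nt from 7 P/D reads (adjusted p = 0.00657), but with reads pooled to the gene the difference was 21.8 nt (SE 31.9, adjusted p = 0.595). Tex36 ended at 121 ± 3.70 nt and Tex38, a partner of the palmitoyltransferase ZDHHC19, at 108 ± 13.5 nt, the latter from 87.3 ± 14.2 nt with no call (20.2 nt, SE 10.5, adjusted p = 0.152). These 2 were among the shortest RS tails of the members.

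By role, 5 of 6 tested contigs of the connecting piece, manchette and flagellum list were longer, with a median difference of 57.5 nt. Of all tested contigs, 54.2% were longer and 1.69% shorter. In the acrosome and head list 4 of 6 were longer (median 47.1 nt). In the mitochondria and midpiece list (median 4.56 nt) all 3 Spata33 contigs were longer and 2 minor Spata19 contigs shorter. Those 2 rest on 10 and 2 P/D reads. With Spata19 reads pooled to the gene, no tail change was called (limma adjusted p = 0.0551). Of the broadly expressed genes 3 of 7 were longer (median 21.3 nt), and of the contigs with no role assigned 14 of 37 (median 19.9 nt). The median was 22.1 nt over all tested members and 37.4 nt over all tested contigs.

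In 20 genes, 2 or more contigs entered the tail test. For Tex30 the shares of reads assigned to its contigs differed between the cell types. Its lead contig (chr1:44086613-44102391, minus strand, protein coding) held 76.2, 88.1 and 87.7% of the gene's reads in P/D samples and 22.2, 12.5 and 15.6% in RS. Contigs that end 197 to 254 bases upstream took most of the rest. One of them went from 3.58% ± 0.782 to 32.8% ± 3.75 (SD, n = 3), and another from 1.59, 0 and 0% to 22.2, 37.5 and 28.1%. The gene as a whole went from 63, 67 and 65 reads to 27, 40 and 32, a log2 fold change of -1.35 (SE 0.19), so the fall was smaller than for the lead contig alone. The exact two-sided permutation p of the lead contig's share was 0.1, the smallest possible, and 0.4 after adjustment over the 20 genes.

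The ends of these Tex30 contigs are shown because the shares of reads assigned to them differed between the cell types. Where the reads themselves end was not tested. Capitals mark a hexamer where one was found in the last 50 bases.
Tex30 lead contig (chr1:44086620-44086649, minus strand): aagttttgaaaaATTAAAcatttgcatttt
Tex30 contig ending 197 bases upstream (chr1:44086810-44086839, minus strand): aaagtatacctctcactcagcattgtgaga
Tex30 contig ending 254 bases upstream (chr1:44086867-44086896, minus strand): gaaataattgtcATTAAAagccatgttctg

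For Spata17 too, a contig with an upstream end was assigned a larger share of the reads in RS. The lead contig, whose end had neither hexamer, held 91.3% ± 6.64 of the gene's reads in P/D samples and 49.9% ± 6.42 in RS (SD, n = 3). The exact two-sided permutation p of its share was 0.1, and 0.4 after adjustment over the 20 genes. A shorter contig that ends 90645 bases upstream in the gene rose from 5, 1 and 1 reads to 34, 55 and 40 (log2 fold change 3.70, SE 0.41, adjusted p = 2.91e-10), while the lead contig had a log2 fold change of 0.22 (SE 0.22, adjusted p = 0.378). The shorter contig had tails of 148 ± 32.4 nt in P/D samples and 142 ± 5.74 nt in RS, and the lead contig went from 99.5 ± 13.9 to 133 ± 4.23 nt.
Spata17 lead contig (chr1:187044648-187044677, minus strand): ccgactcattctcctgtactcactttctca
Spata17 shorter contig (chr1:187135301-187135330, minus strand): tctcgccttcctATTAAActgcgttgtcaa

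In Spata6 and Spata20 the contigs whose read shares changed have 3′ ends within 8 bases of each other. A read that stops before the exons that differ can be assigned to either. The Spata6 lead contig held 83.2% ± 1.61 of reads in P/D samples and 58.9% ± 5.61 in RS, with a processed transcript taking 12.3% ± 1.47 and 36.7% ± 3.95. In Spata20 the lead contig went from 89.0% ± 9.74 to 65.7% ± 1.21. Of the 20 lead-contig shares compared, 5 reached the smallest p of 0.1, those of Spata17, Spata20, Spata24, Spata6 and Tex30. The 3 tested contigs of Spata33 and the 3 of Tex22, which end within 3 bases of each other in each gene, gained 62.8 to 73.3 nt and 35.4 to 51.6 nt. The 4 tested contigs of Spata19 end within 1 base, and of these 2 were shorter and 2 were not called.

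**Figure D5:**
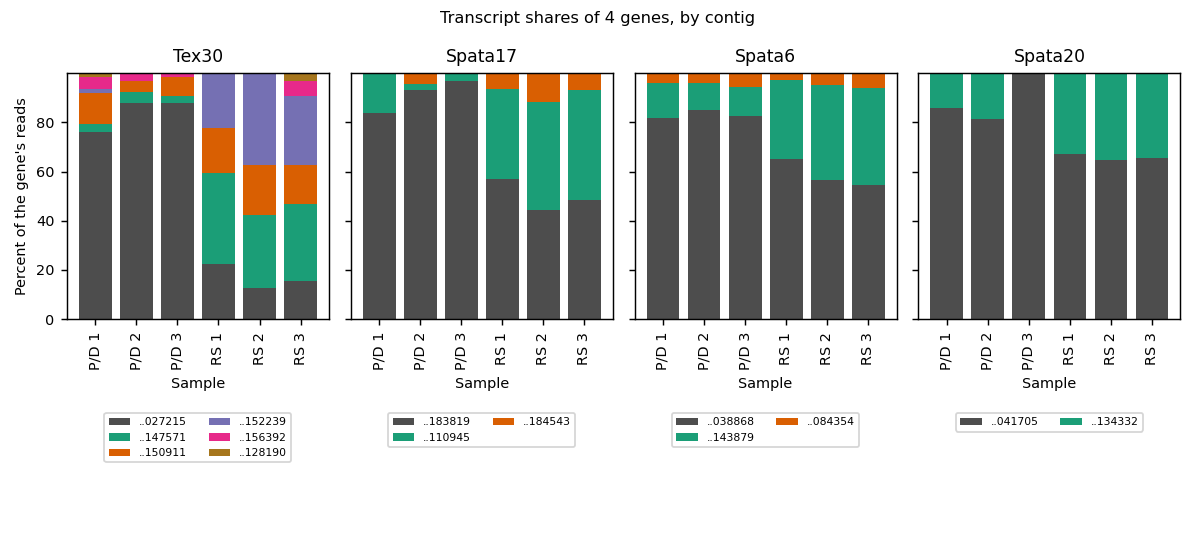
Percent of a gene's reads (y axis) on each of its contigs, stacked by colour with the last 6 digits of the transcript identifier, in the 3 P/D and 3 RS samples (x axis) of Tex30, Spata17, Spata6 and Spata20. The lead contig (dark grey) holds most reads in P/D samples and less in RS in all 4 genes, with the largest shift in Tex30.

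Tex48 and Tex53 are neighbours on chromosome 4 with nearly the same transcript end.
Tex48 (chr4:63607094-63607123, minus strand): gggctgcctgcaATTAAAgtccttgtttgc
Tex53 (chr4:63596907-63596936, minus strand): gtgctgcctgcaATTAAAgtccttgtttgc
The Tex48 lead contig averaged 176, 177 and 176 nt in RS and the Tex53 lead contig, a processed transcript, 110, 94.8 and 110 nt. A protein-coding Tex53 contig that ends 1 base away averaged 144 nt in RS. With Tex53 reads pooled to the gene, the RS means were 116, 112 and 128 nt. Both lead contigs rose, by log2 fold changes of 3.31 (SE 0.26, adjusted p = 1.76e-14) and 2.78 (SE 0.41, adjusted p = 1.44e-07). No tail change was called for either lead contig. Reads can be misassigned between copies this close, so the values are uncertain, and whether the RS tails of the 2 genes differ was not tested.

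The 13 member genes whose contigs passed neither filter were Spata2l, Spata31d1a, Spata31d1b, Spata31e1, Spata31e2, Spata31e5, Tex13c3, Tex44, Tex46, Tex50, Tex52, Tex55 and the ER-phagy receptor Tex264. Tex44 had no P/D read and 8, 11 and 17 reads in RS, at least 9.09-fold higher, taking 3 reads over the 3 P/D samples as the floor, which covers counting error only. Tex52, with no P/D read and 2, 10 and 4 in RS, was at least 3.64-fold higher. Tex264 had 4, 6 and 11 reads on its lead contig in P/D samples and 5, 18 and 9 in RS. With the reads of its 3 contigs pooled to the gene, a setting chosen after seeing the data, Tex264 had 14, 17 and 15 reads and then 15, 43 and 15. Its pooled tails averaged 113, 79.3 and 87.3 nt in P/D samples and 146, 126 and 154 nt in RS, a difference of 48.7 nt (SE 11.5, limma adjusted p = 0.0121), with every RS mean above every P/D mean.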

How the data were processed

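Poly(A) tails and mRNA levels were measured by direct RNA sequencing in 3 P/D spermatocyte and 3 RS samples. According to the study's methods and the processing notes, the authors basecalled with Guppy, demultiplexed with Deeplexicon, aligned to GENCODE vM17 transcripts (GRCm38) with minimap2 and measured tails with Nanopolish. The deposited counts are raw reads per contig. The deposited tail lengths are in nt, 1 per read, with no normalization. Here, mean tails per sample were compared with limma 3.58.1 (contigs with at least 10 reads in 2 replicates of a cell type) and counts with edgeR 4.0.16 (quasi-likelihood, TMM, filterByExpr). Both were adjusted by the Benjamini-Hochberg method over all tested contigs, with 0.05 as threshold, in R 4.3.3. Single values used exact two-sided permutation tests over samples. DESeq2 1.42.0 was an alternative. Standard deviations are over samples.

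The members and lists were chosen with earlier results of these data known. Genes were named by rule: the 12 with most reads, the 6 largest and 6 smallest tail changes among lead contigs with at least 20 reads in every sample, the 6 highest and 6 lowest log2 fold changes past the count test, tested genes of the role lists, genes with 2 or more contigs in the tail test, and genes that passed neither filter. Tex26, Tex36 and Tex54 were named after their values were seen. Depth was 244004 to 474688 reads per sample, so contigs with a few reads have wide errors. The intervals and floors cover counting error only. The study took the cell types from the same mice, but no source says that pools of the same number share mice, and not every same-numbered pair correlated above 0.1, so the main fits, like the methods, have no block. The block was an alternative. The p-values measure the spread between pools. Tests were checked on simulated data. Annotation and sequences came from GENCODE vM21, which is not the release used for alignment, and from the GRCm38.p6 genome.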

Additional observations from a re-analysis of the deposited data

How the results depend on the processing

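No called result reversed. Of the 34 member contigs called for tails, the replicate block called 27, all among the 34. Cell types came from the same mice, but the samples share, as far as the sources say, only a number. Deviations of same-numbered samples correlated at -0.011, 0.077 and 0.016 for tails and 0.026, 0.24 and 0.070 for counts. With the replicate block, 26 members were longer and 1 shorter, 54 were higher, the long class rose by 41.3 points (exact sign-flip p = 0.25, the smallest possible) and the share of reads by 0.784 points.

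Leaving out 1 sample gave 23 to 34 longer members (32 with all samples), 1 to 3 shorter (2), 55 to 64 higher (54), 3 to 5 lower (4), a median tail difference of 19.0 to 31.2 nt (22.1), a median log2 fold change of 2.70 to 3.00 (2.78), a long-class rise of 40.4 to 42.4 points and a share rise of 0.76 to 0.805 points. Over all contigs it gave 3175 to 3725 longer (3787), 66 to 141 shorter (118), 2022 to 2206 higher (1955) and 1770 to 1988 lower (1848). The low of 66 came without RS replicate 2, and 78 were shorter without RS replicate 1. Only 1 member was shorter without P/D replicate 1 or without any 1 of the RS samples. Of the 15 lead contigs named by rule and called for tails, 10 kept the call under every alternative that tested them, and of 34 called for counts, 32 did.

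Requiring 10 reads in 2 replicates of both cell types left 19 longer and 0 shorter of 24 members, with a median of 44.0 nt. Of all 3889 contigs in that fit, 2956 were longer and 92 shorter. Requiring 20 reads in every sample left 14 and 0 of 15, with a median of 51.6 nt, and 1592 longer and 45 shorter of all 1827 contigs. These filters test fewer contigs. Shorter members numbered 0 with weights by reads, 0 with reads pooled to the gene (chosen after seeing the data) and 1 with the equal-variance test. Requiring 10 reads in every sample gave 11 higher and 0 lower of 21 members and a median log2 fold change of 0.45. Of all 3077 such contigs, 768 were higher and 725 lower. With no filter, 86 of 121 members and 3404 of 11467 contigs were higher. Summing to genes gave 35 higher of 45 member genes and 1682 of 4823 genes in all. DESeq2 gave a median of 2.91 and 77 higher members, with 2563 higher of all contigs. The long class rose by 27.6 points as 120 to 180 nt, 46.3 as 120 nt or more and 21.3 with equal weights. The share rose by 0.845 points without Spata4. Causes of these moves were not tested. Low P/D read counts limit the tails of members that rose.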

Other observations

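Genes known to work with Spata and Tex proteins were compared as a separate list of 24 genes, of which 20 had a contig. The CatSper list, with 11 of the tail-tested and 10 of the count-tested contigs, was chosen for Tex40. The SPATA2 complex list was chosen for Spata2. Neither Tex40 nor Spata2 is among the members. Of 23 contigs in the tail test, 15 were longer in RS and 0 shorter, against 54.2% longer and 1.69% shorter of all tested contigs. Of 22 in the count test, 7 were higher and 5 lower, against 32.6% and 30.8% of all tested contigs. Of the calcineurin and anchor list, 3 of 3 tested contigs had longer tails. Vdac3, a channel of the mitochondrial outer membrane, averaged 160 nt in RS (difference 64.6 nt, limma adjusted p = 0.000765), and Ppp3r2, the testis calcineurin regulatory subunit, went from 106 to 167 nt (61.7 nt, adjusted p = 0.00049). Over the same samples Ppp3r2 had a log2 fold change of -0.34 (edgeR adjusted p = 0.00276). Catsperg2, a subunit of the sperm calcium channel CatSper, went from 155 to 218 nt (62.9 nt, adjusted p = 0.000513). Wdr18, a partner of TEX10, had a log2 fold change of -0.91 (edgeR adjusted p = 0.00171). Las1l, Cyld, Rnf31 and Gopc were not listed.

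Of the genes with these names that were left out, Tex101, a surface protein of germ cells, had 67, 80 and 73 reads in P/D samples and 3, 2 and 4 in RS, a log2 fold change of -4.98 (SE 0.31, edgeR adjusted p = 2.00e-17).

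RefSeq promoters (GRCm38.p6, 250 bases before to 50 after the start) were found for 52 of the 61 member genes. The core TGACG of the cAMP response element, on either strand, occurred in 12 of 63 member promoters, or 19.0%, against 20.8% of 32851 promoters. The full TGACGTCA occurred in 1 of 63, that of Spata7, against 1.79%. A match is a description of the letters in this window.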
